A study of Mus musculus with 32 samples.

Results

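Chromatin accessibility was described here at the mouse genes for the tRNAs that carry leucine, serine and selenocysteine, in the brain and the liver of mice with all their phenylalanine tRNA genes and of mice that lack 1 of them. Members were taken by name alone, as every locus of the deposited tRNA tables named tRNA-Leu, tRNA-Ser or tRNA-SeC, without the CAA-4-1 and TAA-3-1 loci of leucine. This gave 46 loci, beside 355 other tRNA loci in the tables. There were 24 leucine loci with 5 anticodons (5 loci for AAG, 10 for CAG and 3 each for CAA, for TAA and for TAG), 21 serine loci with 4 anticodons (8 loci for AGA, 7 for GCT and 3 each for CGA and for TGA) and 1 selenocysteine locus with the anticodon TCA. In each name the anticodon is followed by the isodecoder number, which marks a distinct tRNA sequence, and then by the copy number of that sequence.

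These tRNAs share a long variable arm, an extra stem between the anticodon stem and the T stem that most other cytosolic tRNAs lack. Seryl-tRNA synthetase recognises this arm rather than the anticodon, and it also charges the selenocysteine tRNA with serine before that serine is converted to selenocysteine, which is inserted at specific UGA codons of selenoprotein mRNAs. Leucine and serine tRNA genes are transcribed by RNA polymerase III from promoters inside the gene, whereas the selenocysteine tRNA gene relies on elements upstream of its start. Accessibility of a tRNA gene reflects how open its chromatin is and does not measure the amount of tRNA.

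Nuclei came from fresh brain or liver of male C57BL/6N mice aged 10 weeks and were assayed by ATAC-seq, which uses a transposase to insert sequencing adapters into accessible chromatin. Wild-type mice were compared with mice homozygous for a CRISPR-Cas9 deletion of tRNA-Phe-GAA-1-1 (Phe11), tRNA-Phe-GAA-2-1 (Phe21) or tRNA-Phe-GAA-3-1 (Phe31), bred to homozygosity. There were 5 wild-type brains, 7 wild-type livers, 4 Phe11 libraries per tissue, and 3 libraries per tissue for Phe21 and for Phe31. The 3 livers labelled Phe31 and the 3 wild-type livers compared with them came from batch 3, and all others from batches 1 and 2.

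Brain libraries held 20315 to 35565 reads over all tRNA loci, with a median of 26173, and liver libraries held 4719 to 23754, with a median of 9329. Of the brain markers, 5 of 6 had a consensus peak within 1000 bases of their start in each brain peak list (Gfap had none), and 3, 3 and 2 of 6 did in the liver lists. All 6 liver markers had such a peak in each liver list, against 1, 1 and 0 in the brain lists, while blood and endothelium markers had 0, 1 and 0 of 4 in brain and 3 of 4 in each liver list. The deleted locus kept 33.4% (Phe11), 7.02% (Phe21) and 4.82% (Phe31) of its wild-type level in brain, and 14.4% (Phe11) and 8.02% (Phe21) in liver. In Phe21 mice tRNA-Phe-GAA-3-1 also lay below every wild-type library, at 73.2% of wild type in brain and 60.2% in liver. In the livers labelled Phe31, however, tRNA-Phe-GAA-3-1 kept 75.4% and overlapped wild type, whereas tRNA-Phe-GAA-1-1 kept 9.95% and lay below wild type in every library, so these are called the livers labelled Phe31 throughout. Wild-type brain libraries 3 and 18, wild-type liver libraries 1 and 22, and wild-type liver libraries 3 and 24 had counts that differed by less than sampling noise. Each such pair was counted as 1 sample in the group means and SDs below, except where every library is said to be used. Each pair held a library of batch 1 and a library of batch 2. A fit without 1 library of a pair, or within 1 batch, may therefore still hold the same sample. Wild-type livers of batch 3 differed from those of batches 1 and 2 by more than sampling noise in each pairing of libraries, with a chi-square between 2.29 and 2.82 per degree of freedom.

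Members with the same sequence can be compared as copies at different sites. The sequences below are those of the isodecoders that could be paired with a sequence, so several loci named in the results have none shown. They were read from the mouse genome build GRCm39, where a search for long-arm tRNA genes found 46 genes with 30 distinct sequences for the 48 leucine, serine and selenocysteine loci of the tables, the excluded loci among them. The tables use the older build GRCm38.p6 and give no positions, so an isodecoder was paired with a sequence only where its number of copies was unique within its anticodon, and within an isodecoder of several copies no copy was assigned to a position. Each sequence is written 5′ to 3′, and capitals mark the anticodon and then the variable region.
tRNA-Leu-AAG-1: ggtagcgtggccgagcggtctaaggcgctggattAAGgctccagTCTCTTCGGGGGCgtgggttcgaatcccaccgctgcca
tRNA-Leu-CAG-1: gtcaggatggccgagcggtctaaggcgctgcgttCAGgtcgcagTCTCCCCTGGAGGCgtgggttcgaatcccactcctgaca
tRNA-Leu-CAG-2: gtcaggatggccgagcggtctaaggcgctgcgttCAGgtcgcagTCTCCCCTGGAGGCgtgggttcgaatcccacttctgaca
tRNA-Ser-AGA-2: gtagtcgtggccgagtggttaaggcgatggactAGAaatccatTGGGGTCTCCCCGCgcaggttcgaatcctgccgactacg
tRNA-Ser-TGA-2: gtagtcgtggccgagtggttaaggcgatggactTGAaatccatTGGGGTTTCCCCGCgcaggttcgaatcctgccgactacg
tRNA-Ser-TGA-1: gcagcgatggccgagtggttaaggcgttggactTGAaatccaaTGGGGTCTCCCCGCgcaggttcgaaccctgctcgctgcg
tRNA-Ser-GCT-4: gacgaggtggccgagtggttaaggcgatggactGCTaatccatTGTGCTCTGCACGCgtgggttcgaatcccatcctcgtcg
tRNA-SeC-TCA-1: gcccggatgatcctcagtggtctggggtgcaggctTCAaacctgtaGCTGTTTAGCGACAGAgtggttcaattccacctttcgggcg

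The leucine genes found were 82 to 107 bases long, including an intron in the CAA genes, the serine genes were 82 bases and the selenocysteine gene was 87 bases. Their variable regions spanned 13 to 15 bases in leucine, 14 in serine and 16 in selenocysteine genes. Ser-AGA-2 and Ser-TGA-2 differed at 2 of 82 bases although they read different serine codons, whereas Ser-TGA-1 and Ser-TGA-2 share an anticodon and differed at 12. Leu-CAG-1 and Leu-CAG-2 differed at 1 of 83 bases.

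Of the 46 genes, 19 were on chromosome 13, which holds a large cluster of mouse tRNA genes. In the GENCODE annotation 26 lay between genes, 13 in an intron and 7 in an exon. The 6 copies of Ser-AGA-2 were on chromosomes 4, 11 and 13, the 3 copies of Leu-AAG-1 on chromosomes 11, 13 and 14, and 4 of the 5 copies of Leu-CAG-1 on chromosome 1. The single gene with the Ser-TGA-1 sequence was at chr10:63265255-63265336 on the minus strand, between genes and 541 bases from Ctnna3, the nearest coding gene. The selenocysteine tRNA gene was at chr7:19035169-19035255 on the plus strand, between genes and 1366 bases from Fosb.

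How accessibility is divided among the long-arm genes of wild-type mice was examined first. The level of a locus is given as a normalised count, the reads over the gene and 50 bases on each side divided by the size factor of the library, so that loci of one anticodon have windows of nearly equal length. Together the 46 loci held 15% ± 0.0479 (SD, n = 4) of all tRNA-locus reads in wild-type brain and 15.1% ± 0.516 (SD, n = 2) in wild-type liver of batches 1 and 2. In the wild-type livers of batch 3 they held 16.8% ± 0.475 (SD, n = 3). Shares by anticodon are descriptions and were not tested.

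In batches 1 and 2, serine GCT genes held more reads than any other anticodon among the members, 2.87% ± 0.101 (SD, n = 4) of tRNA-locus reads in wild-type brain and 3.15% ± 0.0439 (SD, n = 2) in wild-type liver, whereas the livers of batch 3 held 2.4% ± 0.220 (SD, n = 3). The other serine anticodons held 1.43% (AGA), 1.13% (TGA) and 0.938% (CGA) in brain. In liver they held 1.57% (AGA), 0.671% (TGA) and 0.931% (CGA). Reads at the leucine members were divided more evenly, at 2.02% (AAG), 1.87% (CAA), 1.62% (CAG), 1.37% (TAA) and 1.33% (TAG) in brain. In liver the corresponding shares were 2.26%, 2.05%, 1.70%, 0.951% and 1.26%. The single selenocysteine gene held 0.375% ± 0.0489 (SD, n = 4) in brain and 0.507% ± 0.0603 (SD, n = 2) in liver. Wild-type livers of batch 3 stood apart from those of batches 1 and 2 in several anticodons, with AAG at 3.24% ± 0.0495 (SD, n = 3), TGA at 1.13% ± 0.164 (SD, n = 3) and selenocysteine at 0.754% ± 0.166 (SD, n = 3).

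**Figure D1:**
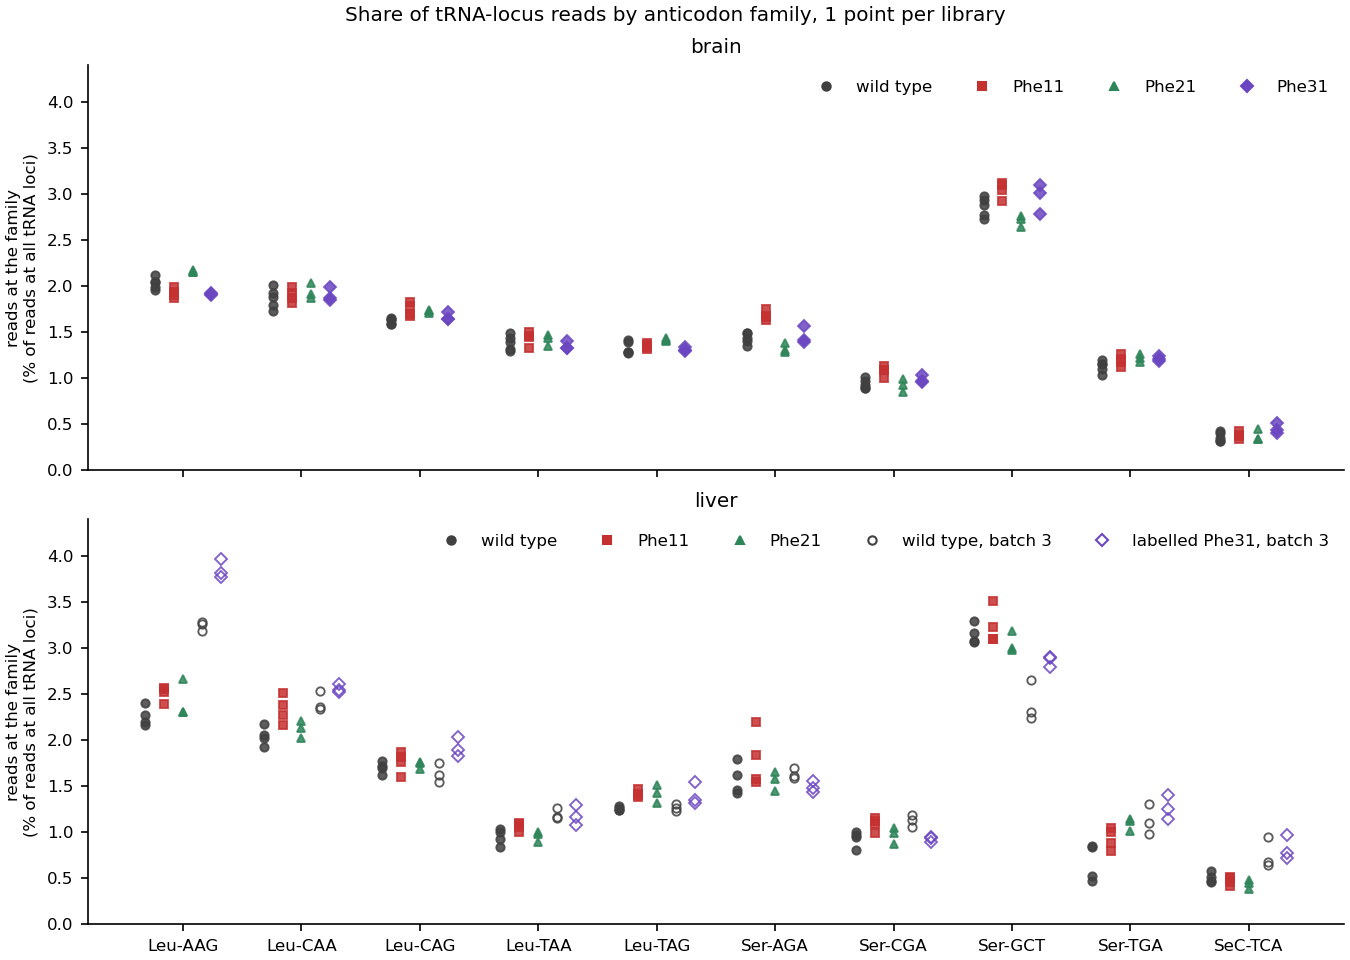
Reads at each anticodon family as a percent of the reads at all tRNA loci, with 1 point per library, brain and liver in separate panels, colours and symbols for genotype and open symbols for batch 3. In the liver panel the open symbols of batch 3 lie above the filled ones for Leu-AAG, where the batch 3 wild types averaged 3.24% and the other wild types 2.26%.

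Within several anticodons a single locus carried a large share of the signal. In wild-type brain Leu-AAG-2-1 held 48.5% ± 0.741 (SD, n = 3) of the AAG reads at a normalised count of 256 ± 9.64 (SD, n = 3), against 26 ± 4.71 (SD, n = 3) at Leu-AAG-3-1, and none of the neighbours in the order of the AAG loci overlapped there. In liver Leu-AAG-2-1 was also the highest at 69.1 ± 6.13 (SD, n = 2), but the lowest was Leu-AAG-1-1 at 27.6 ± 4.67 (SD, n = 2), and 2 of 4 neighbouring pairs overlapped. Leu-CAA-3-1 was highest of the CAA loci in brain (260.5 ± 4.62, SD, n = 3) and in liver (114 ± 6.08, SD, n = 2), and Leu-CAA-1-1 had the lowest mean, at 70.3 and 43.1. In liver 1 of 2 neighbouring CAA pairs overlapped, Leu-CAA-2-1 with Leu-CAA-1-1.

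The other leucine anticodons had the same locus highest by mean in both tissues, but the highest CAG locus did not stand apart in liver. Of the reads at the TAA members, without the excluded locus, Leu-TAA-2-1 held 71.9% ± 0.959 (SD, n = 3) in brain and 76.4% ± 2.29 (SD, n = 2) in liver. Leu-TAG-1-1 held 52.6% and 58.1% of the TAG reads, and Leu-CAG-2-3 held 34.8% and 30.8% of the CAG reads. In wild-type liver, however, Leu-CAG-2-3 (60.2, 48.9, 57.9 and 44.2) overlapped Leu-CAG-2-2 (36.1, 48.9, 41.8 and 56.6). In wild-type brain they were separate, at 138 to 152 and 95.6 to 123. In each tissue 6 of 9 neighbouring CAG pairs overlapped, among them pairs of loci with few or no reads. The TAG locus with the lowest mean, Leu-TAG-2-1, had a normalised count of 41.9 ± 5.13 (SD, n = 3) in brain and 22.7 ± 0.570 (SD, n = 2) in liver. In liver 1 of 2 neighbouring TAG pairs overlapped, Leu-TAG-3-1 with Leu-TAG-2-1.

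Among serine loci, Ser-GCT-4-1 led its family in brain (226 ± 14.2, SD, n = 3) and liver (104 ± 7.11, SD, n = 2), Ser-TGA-1-1 led in brain (206 ± 6.15, SD, n = 3) and liver (42.0 ± 13.4, SD, n = 2), and Ser-CGA-2-1 had the highest CGA mean in brain (94.9 ± 5.55, SD, n = 3) and liver (46.2 ± 9.70, SD, n = 2). The lowest CGA mean was that of Ser-CGA-3-1 in brain, at 65.5 ± 9.86 (SD, n = 3), and of Ser-CGA-1-1 in liver, at 14.8 ± 5.14 (SD, n = 2). In each tissue 1 of 2 neighbouring CGA pairs overlapped, Ser-CGA-3-1 with Ser-CGA-1-1 in brain and with Ser-CGA-2-1 in liver. Ser-AGA-2-1 led the AGA loci in brain (133 ± 4.24, SD, n = 3). In liver Ser-AGA-2-3 had the highest mean (38.4 ± 1.95, SD, n = 2) but did not stand apart from Ser-AGA-2-1 (36.2 ± 4.33, SD, n = 2), which was above it in libraries 1 and 24. These liver orders were less distinct, since 5 of 7 neighbouring AGA pairs and 3 of 6 GCT pairs overlapped between libraries, against 3 and 2 in brain.

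Copies with the same sequence differed widely in accessibility. The 6 copies of Ser-AGA-2 ranged from 2.29 at Ser-AGA-2-4 to 133 at Ser-AGA-2-1 in wild-type brain, a 58.2-fold range, and from 1.91 at Ser-AGA-2-4 to 38.4 at Ser-AGA-2-3 in liver, a 20.1-fold range. The lower end rested on 9 reads in brain and 6 in liver. The 2 copies of Ser-TGA-2 differed 13.7-fold in brain and 4.66-fold in liver, with Ser-TGA-2-2 the higher in each tissue. The 3 copies of Leu-CAG-2 spanned 3.16-fold in brain and 3.17-fold in liver, those of Ser-GCT-4 spanned 2.19-fold and 2.52-fold, and those of Leu-AAG-1 spanned 1.76-fold and 1.53-fold.

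Among the Leu-CAG-1 copies, Leu-CAG-1-4 stood at 58.8 in brain and 25.9 in liver, whereas Leu-CAG-1-2 and Leu-CAG-1-3 had 0 reads in every library. With 400474 brain reads and 172290 liver reads over all loci, a count of 0 allows a share of up to 0.000749% in brain and 0.00174% in liver, which covers counting error only. In GRCm39 the windows of 2 Leu-CAG-1 genes were identical and the window of another copy differed from them by 1 base, whereas every other window that had a partner of equal length differed from it by at least 62 bases. A read from such windows cannot be assigned to 1 copy, and the part of mapping in these zero counts was not tested.

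Altogether 10 members never reached a mean normalised count of 10 and were not tested in any comparison. They were Leu-CAG-1-1, 1-2, 1-3, 3-1 and 4-1, Leu-TAA-4-1, Ser-AGA-2-4 and 3-1, Ser-GCT-5-1 and Ser-TGA-2-1. Leu-CAG-1-1 had the most reads of these, 130 over the 15 brain libraries and 78 over the 17 liver libraries. The mean was reached by 36 members in each brain table, 35 in the Phe11 and Phe21 liver tables and 32 in that of the livers labelled Phe31, with 32 tested in all 6 tables. By position, 35 of the 47 leucine and serine tRNA genes of RefSeq on GRCm38.p6, which were not matched to single members and include 4 CAA genes and 1 with the anticodon GGA, lay in a consensus peak in each brain list, and 35, 33 and 33 did in the Phe11, Phe21 and labelled Phe31 liver lists. Of the 11 in no list, 7 were Leu-CAG genes, while each of the 5 AAG, 4 CAA, 3 TAG and 3 CGA genes was in all of them.

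**Figure D2:**
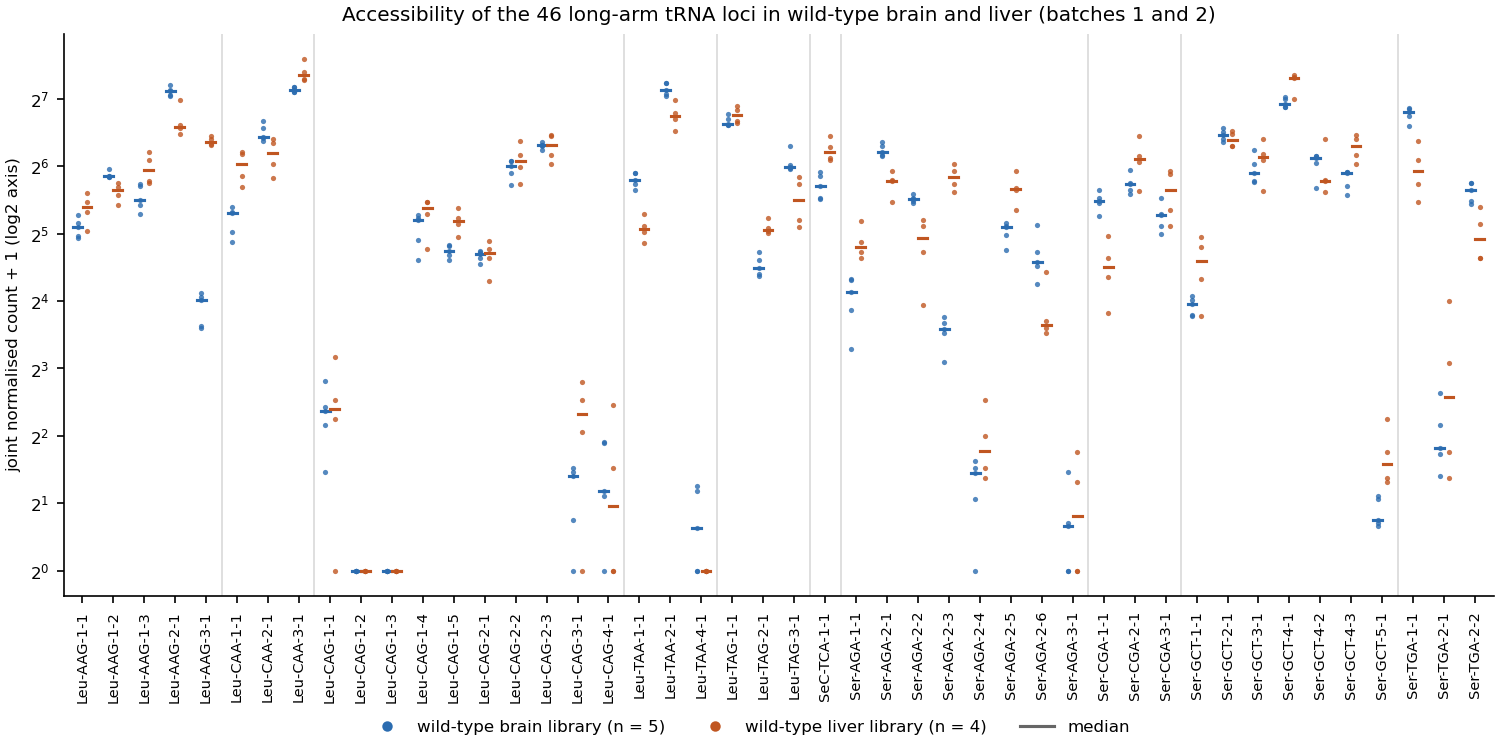
Joint normalised count plus 1 on a log2 axis for each of the 46 loci, ordered by anticodon, with 1 point per wild-type library of batches 1 and 2 and a line at the median of each tissue. Leu-AAG-3-1 and Ser-AGA-2-3 show brain points below all liver points, and Leu-CAG-1-2 and Leu-CAG-1-3 lie at 0 in both tissues.

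Whether brain and liver differ in the accessibility of these genes was examined next in wild-type mice of batches 1 and 2, on a scale set jointly for both tissues (joint normalised count). This scale is set from the tRNA loci themselves, so differences between tissues are relative to these loci and not absolute. Leu-AAG-3-1 and Ser-AGA-2-3 were far more accessible in liver, whereas Ser-CGA-1-1 and Ser-TGA-1-1 were more accessible in brain. The differences ran in opposite directions for loci of the same anticodon, and for copies of the same Ser-AGA-2 sequence. Of 36 members tested, 23 passed the test, 11 higher in brain and 12 higher in liver, at a background of 72.7% of all loci tested, 40.8% higher in brain and 31.9% higher in liver (limma, Benjamini-Hochberg). No overlap between tissues was seen at 21 members, against 63% of all loci. The median log2 difference, brain minus liver, was -0.11 over the members and 0.11 over all loci. In whole tissue, fewer cells with an open gene and less opening per cell cannot be told apart.

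Among leucine genes, Leu-AAG-3-1 had joint normalised counts of 15.7, 11.1, 15.1, 11.3 and 16.4 in the wild-type brains and of 86.0, 78.7, 79.0 and 83.8 in the livers. Every liver lay far above every brain, and the log2 difference was -2.50 ± 0.16 (SE; limma adjusted p = 2.47e-09). Leu-AAG-2-1, which reads the same codons, went the other way, with a median of 138 in brain and 95.3 in liver and a log2 difference of 0.44 (adjusted p = 0.000499). Leu-CAA-1-1 was higher in liver, at 50.6 to 73.2 against 28.4 to 41.2 in brain (log2 difference -0.78 ± 0.15, SE; adjusted p = 0.000227). Leu-TAA-1-1 was higher in brain, at 49.4 to 58.6 against 28.1 to 38.2 in liver (log2 difference 0.72 ± 0.13, SE; adjusted p = 0.000149).

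Among serine genes, Ser-AGA-2-3 had joint normalised counts of 10.5, 11.8, 11, 7.56 and 12.6 in brain and of 52.5, 59.9, 64.7 and 47.9 in liver. The tissues did not overlap, and the log2 difference was -2.32 ± 0.19 (SE; limma adjusted p = 3.14e-08). Its identical copies were split, since Ser-AGA-2-5 was also higher in liver (log2 difference -0.64, adjusted p = 0.00145) whereas Ser-AGA-2-1 (0.49, adjusted p = 0.00134), Ser-AGA-2-2 (0.75, adjusted p = 0.00494) and Ser-AGA-2-6 (0.81, adjusted p = 0.00822) were higher in brain. Ser-AGA-1-1, of another AGA sequence, was higher in liver, at 24 to 35.6 against 8.73 to 19.2 (log2 difference -0.85, adjusted p = 0.00498). Within batch 1 alone Ser-AGA-2-6 no longer passed (adjusted p = 0.119), and within batch 2 alone Ser-AGA-1-1 did not (adjusted p = 0.266).

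Ser-CGA-1-1 was higher in brain, with 37.3 to 49.2 against 13.1 to 30.2 in liver and no overlap (log2 difference 1.03 ± 0.20, SE; limma adjusted p = 0.000322). Ser-TGA-1-1, at the sequence printed above, had 107, 115, 114, 110.2 and 96.2 in brain and 52.5, 67.4, 43.1 and 82.3 in liver. Every brain lay above every liver, with a log2 difference of 0.86 ± 0.15 (SE; adjusted p = 0.000111). As a share of all tRNA-locus reads, however, Ser-TGA-1-1 held 0.919% ± 0.139 (SD, n = 3) in the wild-type livers of batch 3, beside the 0.759% ± 0.0688 (SD, n = 4) of wild-type brain and the 0.417% ± 0.132 (SD, n = 2) of the other wild-type livers. No wild-type brain was in batch 3, so the tissues could not be compared there. Leu-AAG-3-1 and Ser-AGA-2-3 held 0.555% ± 0.10 and 0.353% ± 0.0775 (SD, n = 3) in batch 3, beside 0.555% ± 0.00280 and 0.381% ± 0.0205 (SD, n = 2) in the other wild-type livers.

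The selenocysteine gene was more accessible in liver, with joint normalised counts of 59.4, 45.1, 56.9, 44.7 and 51.4 in brain and of 86.0, 67.4, 76.7 and 68.8 in liver. The tissues did not overlap, and the log2 difference was -0.54 ± 0.12 (SE; limma adjusted p = 0.00124). In none of the 6 knockout comparisons did it pass the test, with log2 changes in brain of 0.01 ± 0.11 (Phe11), 0.08 ± 0.14 (Phe21) and 0.29 ± 0.13 (Phe31), and in liver of -0.14 ± 0.15 (Phe11), -0.16 ± 0.16 (Phe21) and 0.09 ± 0.17 (labelled Phe31), each with its SE. The smallest adjusted p was 0.537, in Phe21 liver, and the Phe31 brain change had an unadjusted p of 0.0386 by limma. Wild-type and knockout libraries overlapped at this gene in each comparison.

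The knockouts were then compared with wild type within each table, to see which long-arm genes change when a phenylalanine tRNA gene is lost. The comparisons share wild-type libraries. In brain Phe11 shares libraries 1 and 3 with Phe21 and Phe31, whose wild-type libraries are the same, and in liver Phe11 and Phe21 share libraries 1, 3 and 24. P-values measure the spread between these libraries, which may be technical. The limma fits treated every library as separate, also the pairs counted once in the means, so p-values in the fits that hold such a pair (Phe11 brain, Phe11 and Phe21 liver, tissue and interactions) are too small if the pair is 1 sample, and calls lost when such pairs were averaged are named below.

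In Phe11 brain serine genes passed the test more often than leucine genes, a difference that was not itself tested, with Ser-GCT-1-1 rising from a mean normalised count of 25.0 ± 2.03 (SD, n = 3) to 54.2 ± 1.74 (SD, n = 4) and 6 other serine genes higher. Ser-GCT-2-1, Leu-AAG-2-1 and Leu-TAG-3-1 were lower. Of 36 members tested, 13 passed the test, 10 higher and 3 lower, at a background of 28.1% of all loci (14.8% higher, 13.3% lower). Of 17 serine members 7 rose and 1 fell, and of 18 leucine members 3 rose and 2 fell, whereas selenocysteine did not pass. Libraries of the 2 groups were separate at 16 members, against 27.8% of all loci, and the median log2 change was 0.05 over the members and -0.01 over all loci tested. The 4 knockout libraries were deeper, at 25774 to 35565 reads, than the 4 wild-type libraries, at 20315 to 24351.

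Ser-GCT-1-1, which reads serine AGC and AGU codons, had normalised counts of 24, 26.8, 23.6 and 27.8 in wild-type brain and of 55.4, 51.7, 54.5 and 55.3 in Phe11 brain. All knockouts lay at nearly the same level, far above wild type, with a log2 change of 1.06 ± 0.14 (SE; limma adjusted p = 1.16e-06). It passed under each of the 20 alternatives tried. Another GCT gene, Ser-GCT-2-1, fell from 176, 153, 167 and 161 to 132, 138, 129 and 126, without overlap (log2 change -0.32, adjusted p = 0.00209). Ser-GCT-4-2 rose from 92.4 to 129 in wild type to 136 to 155 in the knockout (log2 change 0.31, adjusted p = 0.0127), but its call was lost without wild-type library 16 (adjusted p = 0.0937) or without Phe11 library 13 (adjusted p = 0.0529).

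The other serine genes that rose belong to each of the remaining serine anticodons. Ser-AGA-2-6 had 33.8, 42.2, 47.3 and 40.5 in wild type and 59.3, 64.6, 68.6 and 60.6 in Phe11 brain, without overlap (log2 change 0.62 ± 0.12, SE; limma adjusted p = 0.000486). Ser-CGA-3-1 had 63.3, 83.1, 57.0 and 69.5 in wild type and 101, 105, 86.3 and 103 in the knockout, again without overlap (log2 change 0.54 ± 0.11, SE; adjusted p = 0.000517). These 2 genes passed with each library left out.

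Other serine calls were lost when single libraries were left out. Ser-AGA-1-1 rose from 16.4 to 35.5 in wild type to 39.9 to 53.5 in Phe11 brain (log2 change 0.67, limma adjusted p = 0.00494, and 0.0679 without Phe11 library 6). Ser-AGA-2-3, the copy that was higher in liver, rose from 13.9 to 21.7 to 21.2 to 36.8, where Phe11 library 6 overlapped wild type (log2 change 0.71, adjusted p = 0.00965, and 0.0661 without wild-type library 18). Ser-TGA-2-2 rose from 77.6 to 97.8 to 104 to 109 (log2 change 0.30, adjusted p = 0.0191), with an adjusted p of 0.0579 without wild-type library 3, 0.0915 without library 18 and 0.0509 without Phe11 library 13. With wild-type libraries 3 and 18 averaged, an alternative chosen after seeing the data, Ser-TGA-2-2 had an adjusted p of 0.0528.

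Among leucine genes in Phe11 brain, Leu-AAG-2-1, the leading AAG locus, had 262, 269.7, 245 and 254 in wild type and 203, 219.7, 222 and 212 in the knockout. Every knockout lay below every wild type (log2 change -0.26 ± 0.06, SE; limma adjusted p = 0.000902). Leu-AAG-3-1, the lowest AAG locus in brain, went from 29.4, 20.5, 27.9 and 20.8 to 34, 40.6, 47.4 and 36.9, above wild type in each library (log2 change 0.67 ± 0.17, SE; adjusted p = 0.00336). Leu-CAA-1-1 rose by 0.43 (adjusted p = 0.00431) and Leu-TAG-2-1 by 0.42 (adjusted p = 0.011) on the log2 scale, each without overlap. Leu-TAG-3-1 fell from 114 to 144 to 92.0 to 107 (log2 change -0.32, adjusted p = 0.00965), with an adjusted p of 0.0554 without wild-type library 16, which is the highest of its group, and 0.0569 without Phe11 library 13.

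Higher calls lay mostly at low loci and lower calls at high loci in this comparison. Of the 6 members with a mean normalised count from 10 to 50, 5 rose and 0 fell, of the 15 from 50 to 100, 4 rose and 0 fell, and of the 15 at 100 or more, 1 rose and 3 fell. The same counts over all loci tested were 27 rising and 5 falling of 84, 8 and 5 of 83, and 4 and 25 of 96. The deeper sequencing of the knockouts moves with these changes, and its part in them was not tested. Within batch 2 alone 9 members passed, within batch 1 alone 1 member passed, and with DESeq2 6 members passed.

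**Figure D3:**
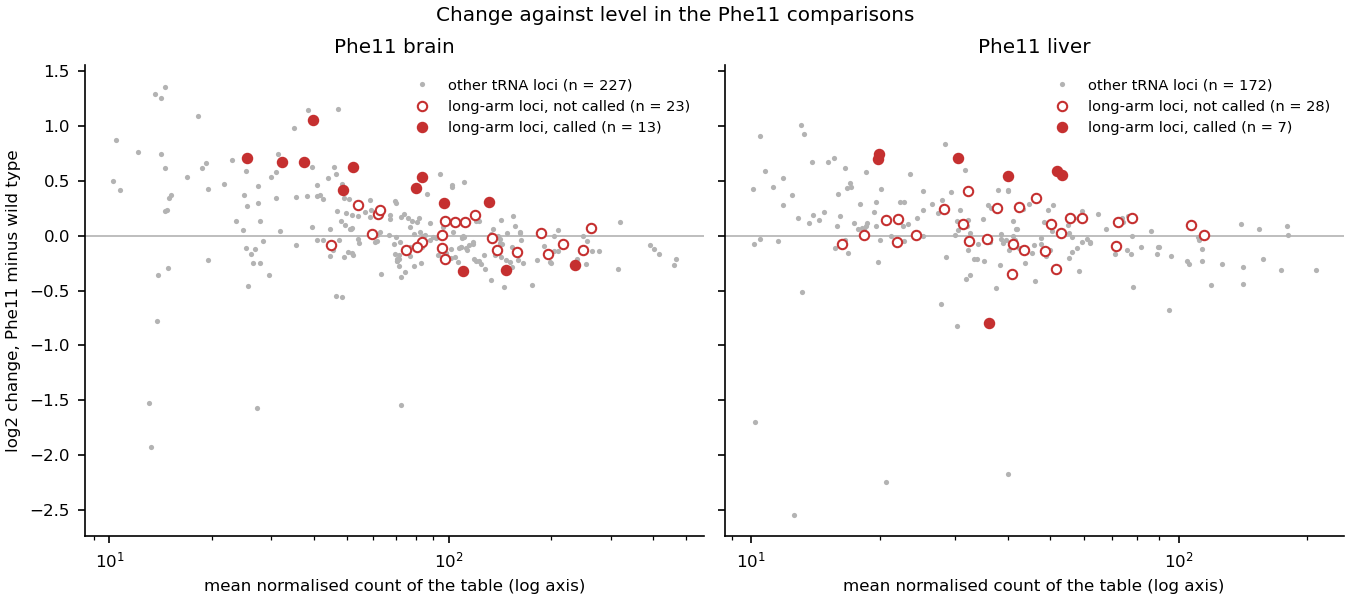
Log2 change, Phe11 minus wild type, against the mean normalised count of the locus in the table (log axis), for brain and liver, with other tRNA loci in grey and the long-arm loci in red, filled where the adjusted p was under 0.05. In brain 9 of the 10 filled points above 0 lie at a mean under 100, and all 3 filled points below 0 lie at 100 or more.

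In Phe11 liver 7 members passed the test, with Leu-CAA-1-1, Leu-TAG-2-1, Ser-CGA-1-1, Ser-CGA-3-1, Ser-GCT-1-1 and Ser-TGA-1-1 higher and Ser-GCT-3-1 lower. These 7 were from 35 members tested, at a background of 12.1% of all loci (5.31% higher, 6.76% lower). Of 16 serine members 4 rose and 1 fell, and of 18 leucine members 2 rose and 0 fell. Separate groups were seen at 3 members, against 13% of all loci, and the median log2 change was 0.11 over the members and 0.06 over all loci. The 4 knockout libraries held 9364 to 23754 reads and the 4 wild-type libraries 6186 to 9739, and the part of depth was not tested.

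The gene with the smallest p, Ser-GCT-3-1, had normalised counts of 49.3, 33.5, 56.3 and 46.3 in wild-type liver and of 25.5, 29.1, 24.8 and 23.9 in Phe11 liver. The groups did not overlap, with a log2 change of -0.80 ± 0.17 (SE; limma adjusted p = 0.000476), and the call held with each library left out and was lost within batch 1 alone (adjusted p = 0.502). Ser-TGA-1-1 had 36.1, 46.3, 29.0 and 56.6 in wild type and 68.5, 54.1, 69.1 and 56.9 in the knockout, which overlap (log2 change 0.59 ± 0.16, SE; adjusted p = 0.00529). Its adjusted p was 0.167 without wild-type library 22 and 0.0645 without Phe11 library 4.

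The other 5 calls in Phe11 liver each depended on single libraries. Leu-CAA-1-1 was 34.8 to 50.4 in wild type and 55.2 to 76.1 in the knockout (log2 change 0.55, limma adjusted p = 0.00659), with 0.0740 without Phe11 library 6 and 0.0876 without Phe11 library 20. Leu-TAG-2-1 was 20.9 to 25.2 and 29.6 to 47.8 (log2 change 0.71, adjusted p = 0.00416), with 0.0722 without Phe11 library 6. These leucine genes were the only called ones to rise without overlap.

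The other 3 serine genes rose with overlapping groups. Ser-CGA-1-1 had a median of 14.7 in wild type and 26.7 in the knockout (log2 change 0.75, limma adjusted p = 0.0192), with adjusted p-values of 0.105 without wild-type library 3, and 0.177, 0.0838 and 0.0750 without Phe11 libraries 6, 20 and 21. Ser-CGA-3-1 had medians of 33.6 and 48.0 (log2 change 0.55, adjusted p = 0.0197), with 0.113 and 0.310 without wild-type libraries 1 and 22, and 0.123, 0.0698 and 0.0744 without Phe11 libraries 6, 20 and 21. Ser-GCT-1-1 had medians of 15.7 and 23.4 (log2 change 0.70, adjusted p = 0.0319), with 0.256 and 0.112 without wild-type libraries 1 and 22, and 0.0605, 0.158 and 0.210 without Phe11 libraries 4, 6 and 20. With close wild-type libraries averaged, 4 members passed in Phe11 liver, and these 3 genes did not (adjusted p = 0.0731 for Ser-CGA-1-1, 0.0757 for Ser-CGA-3-1 and 0.0947 for Ser-GCT-1-1). DESeq2 called 1 member.

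In Phe21 brain no member passed the test, at a background of 0% of all 253 loci tested. By limma 6 members and 17% of all loci had an unadjusted p under 0.05, edgeR and DESeq2 called 0 members, and TMM scaling called 2. The smallest adjusted p was 0.0619, shared by Leu-TAG-3-1 at 109 to 113 in wild type and 137, 149 and 135 in Phe21 brain, and by Ser-TGA-1-1 at 196, 169 and 210.3 in wild type and 246, 242 and 226 in Phe21 brain. The groups did not overlap at these genes, which are among 9 such members, against 24.1% of all loci. The median log2 change was 0.03 over the members and 0.01 over all loci.

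In Phe31 brain only Leu-AAG-1-2, 1 of the 3 copies of the Leu-AAG-1 sequence, passed the test among 36 members, at a background of 0.775% of all loci. It had normalised counts of 99.7, 103 and 99.1 in wild type and of 64.3, 69.6 and 75.7 in the knockout. All knockouts were lower, with a log2 change of -0.52 ± 0.12 (SE; limma adjusted p = 0.0397). The call was lost with TMM scaling (adjusted p = 0.0567) and DESeq2 (adjusted p = 0.386), and without wild-type libraries 1, 2 or 3 (0.202, 0.231 and 0.190) or Phe31 libraries 10 or 11 (0.177 and 0.197). Ser-GCT-1-1, which rose in Phe11 brain, stood at 22.6, 26.6 and 25.4 in wild type and 41.6, 32.9 and 36.0 in Phe31 brain, with an adjusted p of 0.53. The groups did not overlap at 6 members, against 11.2% of all loci, and the median log2 change was 0.04 over the members and 0.01 over all loci.

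In Phe21 liver Ser-GCT-3-1 fell and Ser-TGA-1-1 rose, and no other member passed. These 2 were from 35 members tested, at a background of 13.4% of all loci (8.46% higher, 4.98% lower). Under TMM scaling 4 members rose and 1 fell. At 6 members the groups were separate, against 31.3% of all loci, and the median log2 change was 0.13 over the members and 0.10 over all loci. The knockout libraries held 11278 to 18575 reads and the wild-type libraries 7895 to 9739.

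Ser-GCT-3-1 had normalised counts of 53.7, 36.4 and 51.3 in wild-type liver and of 16.9, 22.8 and 12.6 in Phe21 liver. All knockouts were lower, with a log2 change of -1.41 ± 0.22 (SE; limma adjusted p = 8.42e-08). Ser-TGA-1-1 had 39.4, 50.4 and 62.7 in wild type and 82.5, 86.4 and 107 in Phe21 liver, all of them higher (log2 change 0.86 ± 0.14, SE; adjusted p = 4.6e-07). Each of these calls held under all 16 alternatives. Wild-type libraries 3 and 24 are a close pair, so leaving out 1 of them may remove no sample. Leaving out wild-type library 1 leaves that pair alone.

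At both genes the wild-type livers of batch 3 lay nearer to the Phe21 livers than to the other wild types. As a share of all tRNA-locus reads, Ser-GCT-3-1 held 0.460% ± 0.0916 (SD, n = 2) in wild-type livers of batches 1 and 2, 0.181% ± 0.0295 (SD, n = 3) in those of batch 3, 0.262% ± 0.0196 (SD, n = 4) in those of Phe11, 0.154% ± 0.0487 (SD, n = 3) in those of Phe21 and 0.134% ± 0.0765 (SD, n = 3) in those labelled Phe31. Ser-TGA-1-1 held 0.417% ± 0.132 (SD, n = 2) in wild-type livers of batches 1 and 2, 0.919% ± 0.139 (SD, n = 3) in batch 3, 0.632% ± 0.0881 (SD, n = 4) in Phe11 liver and 0.805% ± 0.0881 (SD, n = 3) in Phe21 liver. In brain Ser-GCT-3-1 held between 0.402% and 0.461% on average in every genotype. The part of batch in the liver differences was not tested beyond the fits within batches 1 and 2.

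In the livers labelled Phe31 only Ser-GCT-4-3, a copy of the Ser-GCT-4 sequence, passed among 32 members, at a background of 10.7% of all loci (1.69% higher, 8.99% lower). It had 20.6, 26.6 and 21.9 in wild type and 38.3, 41.2 and 37.0 in the labelled knockouts, all of them higher (log2 change 0.74 ± 0.22, SE; limma adjusted p = 0.0181). The adjusted p was 0.101 without wild-type library a, 0.0573 without library c and 0.139 by DESeq2. Ser-GCT-3-1 stood at 9.88, 14.1 and 12.0 in wild type and 13.5, 4.12 and 7.93 in the labelled knockouts, which overlap (adjusted p = 0.385). At 5 members the groups were separate, against 23.6% of all loci, and the median log2 change was 0.05 over the members and -0.01 over all loci. The labelled knockouts were the shallowest libraries, at 4719 to 5576 reads.

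Each locus called in a knockout comparison is given here with its log2 changes in the comparisons that did not call it, where the smallest limma adjusted p was 0.0619. Comparisons within a tissue share wild-type libraries, apart from that of the livers labelled Phe31. Among the loci called in both Phe11 tissues, Leu-CAA-1-1 had changes of 0.18 (Phe21) and 0.38 (Phe31) in brain and of -0.28 (Phe21) and -0.26 (labelled Phe31) in liver. Leu-TAG-2-1 had 0.01 (Phe21) and 0.09 (Phe31) in brain and 0.13 (Phe21) and 0.23 (labelled Phe31) in liver. Ser-CGA-3-1 had -0.43 (Phe21) and -0.11 (Phe31) in brain and 0.15 (Phe21) and -0.42 (labelled Phe31) in liver. Leu-CAA-1-1 reads leucine UUG codons and Ser-CGA-3-1 serine UCG codons. Ser-GCT-1-1 had -0.35 (Phe21) and 0.54 (Phe31) in brain and -0.08 in Phe21 liver, and it was not tested in the livers labelled Phe31.

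The leucine loci called only in Phe11 brain had these values elsewhere. Leu-AAG-2-1 had 0.25 (Phe21) and 0.06 (Phe31) in brain and 0.13 (Phe11), 0.26 (Phe21) and 0.16 (labelled Phe31) in liver. Leu-AAG-3-1 had -0.71 (Phe21) and -0.15 (Phe31) in brain and 0.16 (Phe11), -0.27 (Phe21) and 0.36 (labelled Phe31) in liver. Leu-TAG-3-1 had 0.33 (Phe21) and -0.07 (Phe31) in brain and 0.11 (Phe11), 0.28 (Phe21) and 0.09 (labelled Phe31) in liver.

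Among the serine loci called only in Phe11 brain, Ser-AGA-1-1 had 0.01 (Phe21) and 0.43 (Phe31) in brain and 0.14 (Phe11) and -0.71 (Phe21) in liver. Ser-AGA-2-3 had -0.32 (Phe21) and 0.10 (Phe31) in brain and 0.26 (Phe11), -0.17 (Phe21) and -0.10 (labelled Phe31) in liver. Ser-AGA-2-6 had -0.47 (Phe21) and 0.17 (Phe31) in brain. Neither Ser-AGA-2-6 in any liver table nor Ser-AGA-1-1 in the livers labelled Phe31 had enough reads to be tested. Ser-GCT-2-1 had 0.09 (Phe21) and 0.07 (Phe31) in brain and -0.30 (Phe11), -0.11 (Phe21) and 0.35 (labelled Phe31) in liver. Ser-GCT-4-2 had -0.05 (Phe21) and 0.06 (Phe31) in brain and 0.34 (Phe11), 0.31 (Phe21) and -0.19 (labelled Phe31) in liver. Ser-TGA-2-2 had -0.14 (Phe21) and -0.03 (Phe31) in brain and 0.15 (Phe11), 0.22 (Phe21) and 0.51 (labelled Phe31) in liver.

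The remaining loci were called in liver or in Phe31 brain. Leu-AAG-1-2 had -0.22 (Phe11) and -0.03 (Phe21) in brain and -0.05 (Phe11), 0.11 (Phe21) and 0.28 (labelled Phe31) in liver. Ser-CGA-1-1 had -0.13 (Phe11), 0.00 (Phe21) and 0.09 (Phe31) in brain and 0.67 (Phe21) and -0.04 (labelled Phe31) in liver. Ser-GCT-4-3 had 0.13 (Phe11), -0.17 (Phe21) and -0.04 (Phe31) in brain and 0.16 (Phe11) and 0.16 (Phe21) in liver. The brain values of the loci called in liver lay near 0 for Ser-GCT-3-1, at 0.12 (Phe11), -0.04 (Phe21) and 0.03 (Phe31), with -0.56 in the livers labelled Phe31. Ser-TGA-1-1 had -0.16 (Phe11), 0.31 (Phe21) and 0.19 (Phe31) in brain and 0.01 in the livers labelled Phe31.

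**Figure D4:**
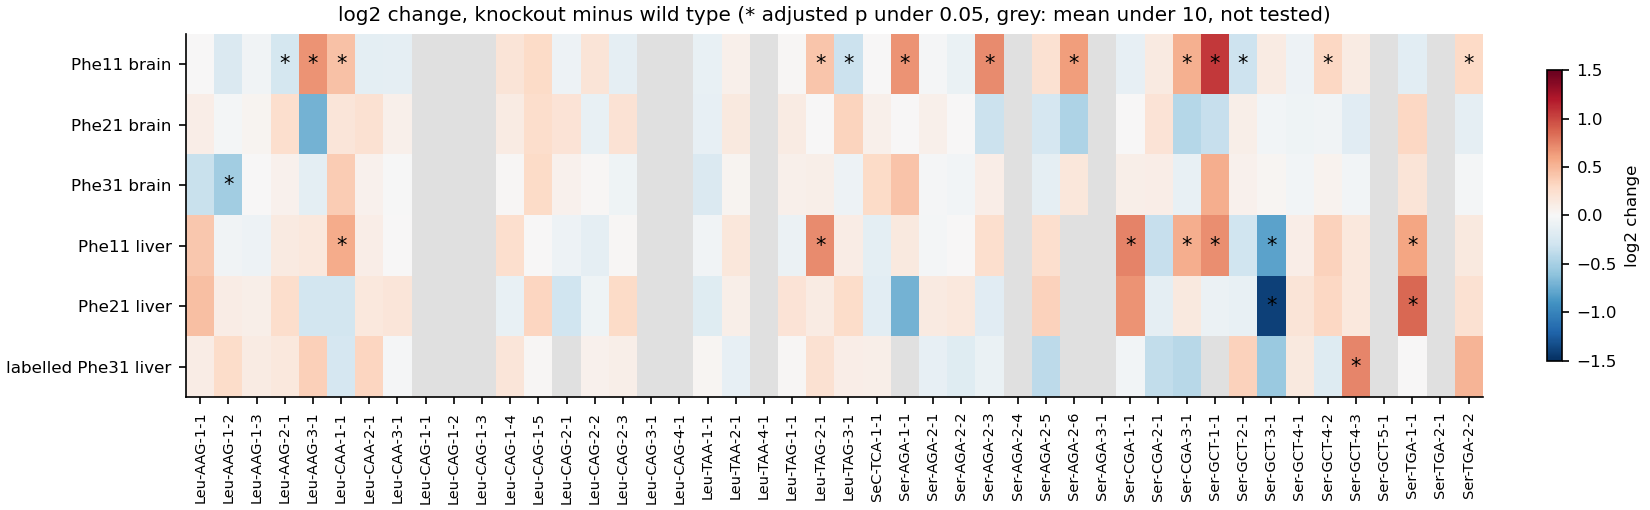
Log2 change, knockout minus wild type, of each long-arm locus (columns, by anticodon) in the 6 comparisons (rows) on a colour scale, with an asterisk where the adjusted p was under 0.05 and grey where the locus was not tested. Of the brain rows Phe11 has 13 asterisks, Phe31 has 1 and Phe21 has 0, and of the liver rows Phe11 has 7, Phe21 has 2 and labelled Phe31 has 1.

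Whether a change differed between brain and liver was tested directly, as an interaction of tissue and genotype on the joint scale. For Phe11, 3 of 36 members passed, at a background of 9.31% of all loci (6.48% with a larger log2 change in brain, 2.83% with a larger one in liver), and these were Ser-GCT-3-1, Ser-TGA-1-1 and Ser-CGA-1-1. For Phe21, 1 of 36 passed, at a background of 5.42% (3.75% larger in brain, 1.67% larger in liver), again Ser-GCT-3-1. No leucine member passed in either.

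In brain Ser-GCT-3-1 had a mean joint normalised count of 64.0 ± 2.80 (wild type, SD, n = 3) and 71.9 ± 7.09 (Phe11, SD, n = 4), and in liver of 74.3 ± 14.5 (wild type, SD, n = 2) and 41.6 ± 3.23 (Phe11, SD, n = 4). The log2 change in brain minus that in liver was 0.95 ± 0.19 (SE; limma adjusted p = 0.00197). For Phe21 the difference was 1.38 ± 0.27 (SE; adjusted p = 0.00123), with 67.9 ± 2.64 (SD, n = 3) in Phe21 brain and 26 ± 7.82 (SD, n = 3) in Phe21 liver. Each held under all alternatives tried, 26 for Phe11 and 22 for Phe21. None of these fits held the wild-type livers of batch 3. By share of reads, as given above, those livers lay nearer to the Phe21 livers than to the other wild types at Ser-GCT-3-1 and at Ser-TGA-1-1.

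Mean joint normalised counts of Ser-TGA-1-1 were 125 ± 3.09 (wild type, SD, n = 3) and 114 ± 9.77 (Phe11, SD, n = 4) in brain, and 67.4 ± 21.7 (wild type, SD, n = 2) and 100.0 ± 11.8 (Phe11, SD, n = 4) in liver. The log2 difference between tissues was -0.73 ± 0.20 (SE; limma adjusted p = 0.0224, and 0.0556 without wild-type liver library 22). In Phe21 it was -0.55 ± 0.18 (SE; adjusted p = 0.072). Ser-CGA-1-1 had 46.6 ± 3.71 (SD, n = 3) and 44.1 ± 4.16 (SD, n = 4) in wild-type and Phe11 brain, and 23.7 ± 8.13 (SD, n = 2) and 40.2 ± 8.29 (SD, n = 4) in liver (log2 difference -0.87 ± 0.28, SE; adjusted p = 0.0494). When single libraries were left out this call held only without wild-type liver library 1 or Phe11 liver library 4, and the adjusted p was 0.0556 to 0.118 without each of the others and 0.0870 with close libraries averaged. Under TMM scaling 1 member had a positive and 1 a negative difference for Phe11.

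**Figure D5:**
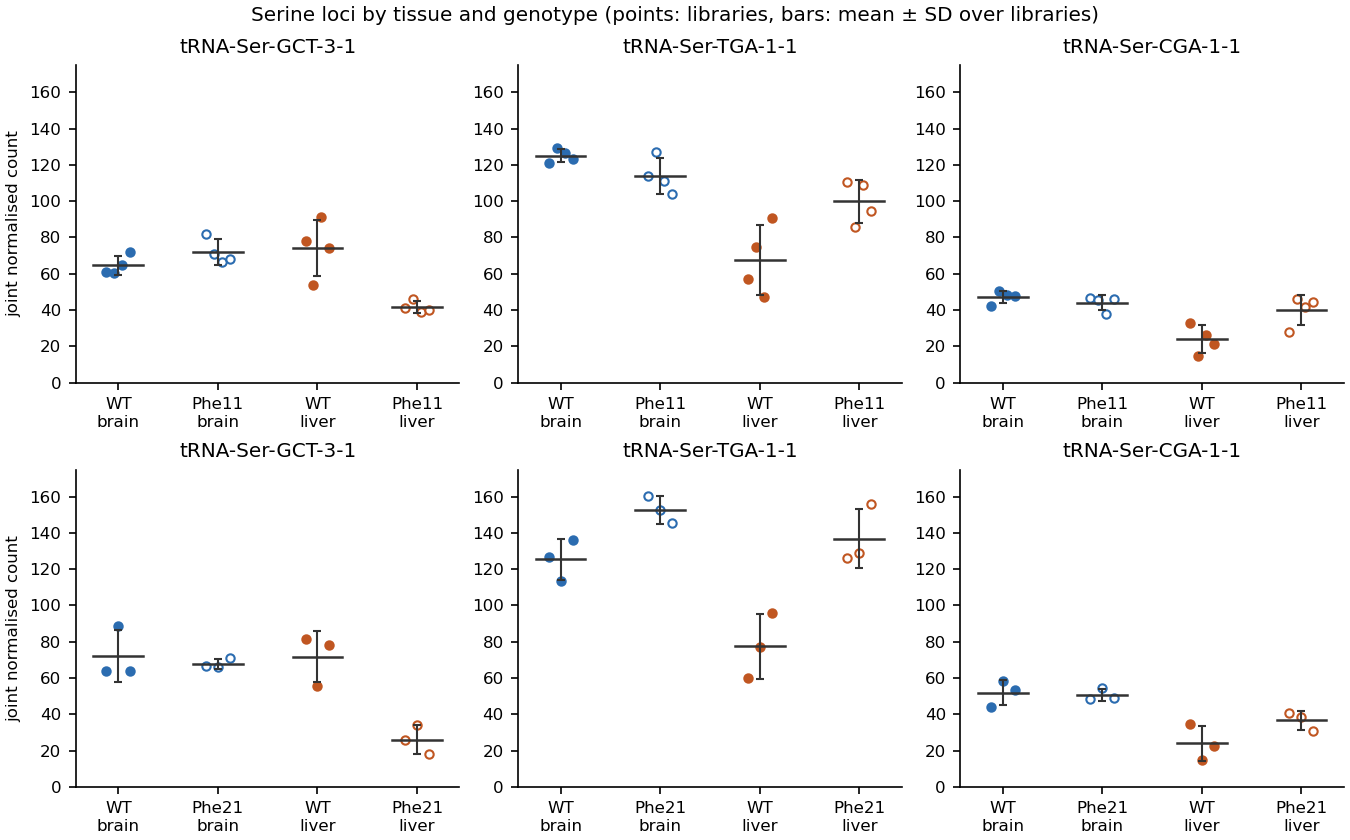
Joint normalised count of serine loci by tissue and genotype, with a point per library and bars for the mean and SD, here over every library. Ser-GCT-3-1 is lower in Phe11 and Phe21 liver than in wild-type liver and level across the brains, while Ser-TGA-1-1 lies above wild-type liver in every Phe21 liver and overlaps it in Phe11 liver.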

How the data were processed

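Reads over each tRNA gene were measured in 32 libraries. Per the labels and the study's methods, adapter trimming by the authors used Trim Galore 0.6.4, after which they mapped reads with Bowtie2 2.4.1 to GRCm38.p6, removed duplicates with Picard 2.23.8 and counted reads over high-confidence GtRNAdb genes and 50 bases on each side with featureCounts 2.0.0. The deposited signal values are these counts divided by a DESeq2 size factor, and whole reads were recovered from the steps between values in every column (the automatic check could not be made for 4 columns). Fold changes and p-values in the deposited tables were not used.

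A locus was tested if its normalised counts averaged 10 or more, on log2(value + 1) with limma 3.58.1 (R 4.3.3), so fold changes of low loci are understated, with a batch term in the Phe11 and tissue fits, and p-values were adjusted by Benjamini-Hochberg over all loci tested at a threshold of 0.05. Tissue and interaction fits used recovered reads scaled jointly by median of ratios. Alternatives were pseudocounts of 0.1 and 10, no minimum or a minimum of 30, TMM and equal totals, edgeR 4.0.16, DESeq2 1.42.0, each library left out, no batch term, each batch alone, close libraries averaged and a replicate block. Scripts were tested on simulated data. The members and lists were chosen with earlier results of these data known. The loci named were the selenocysteine locus, the highest and lowest locus of each anticodon in wild type, every member past the threshold in a knockout or interaction comparison, and the 5 called members with the largest difference in each direction between tissues. Loci outside these, such as AAG-2-1 and AGA-2-1 between tissues and those nearest to the threshold in Phe21 brain, were chosen after their values were seen.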

Additional observations from a re-analysis of the deposited data

Results flagged for a closer look

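In 187 groups of 4 or 5 libraries, 7 single libraries stood far from the rest of their group, where chance gives about 1 in 20 groups, or 9.35 of them. In wild-type brain these were library 18 at Leu-TAG-1-1, with a normalised count of 200.4 against 178 to 182 in the others, and library 16 at Leu-TAG-3-1, with 144.0 against 114 to 117. In Phe11 brain they were library 5 at Ser-AGA-3-1, with 0.972 against 0, a difference of 1 read, and library 13 at Ser-CGA-1-1, with 61.6 against 74.6 to 74.9. In wild-type liver they were library 3 at Ser-AGA-2-6, with 14.2 against 7.20 to 8.05, and library 22 at Ser-GCT-4-1, with 85.3 against 108 or more in the others. In Phe11 liver it was library 6 at Ser-GCT-5-1, with 2.08 against 0, a difference of 2 reads. Values that rest on so few reads say nothing about the library.

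At 3 loci the change in brain differed from the change in liver by limma's interaction test. The log2 change in brain minus that in liver was 0.95 at Ser-GCT-3-1, -0.73 at Ser-TGA-1-1 and -0.87 at Ser-CGA-1-1 for Phe11, and 1.38 at Ser-GCT-3-1 for Phe21.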

How the results depend on the processing

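Of 38 calls at named loci, 13 held under every alternative. In 655 of 765 recomputed values the call was kept, in 110 the direction was the same but the threshold was not passed, and none reversed. With each library left out in turn, member calls numbered 10 to 15 in Phe11 brain (13 with all), 2 to 8 in Phe11 liver (7 with all), 0 to 1 in Phe31 brain, 2 to 5 in Phe21 liver, 0 to 1 in the livers labelled Phe31, 1 to 5 in the Phe11 interaction and 1 to 3 in the Phe21 interaction. In Phe11 liver 4 passed without wild-type library 22, 2 without Phe11 library 6 and 3 without Phe11 library 20. In Phe21 liver 5 passed without wild-type library 1, in the Phe11 interaction 5 without wild-type liver 3 and 1 without wild-type liver 22, and in the Phe21 interaction 2 without wild-type liver 1 and 3 without wild-type liver 24. DESeq2 called 6 members in Phe11 brain, 1 in Phe11 liver, 0 in Phe31 brain and 0 in the livers labelled Phe31. Batch 1 alone gave 1 in Phe11 brain and 0 in Phe11 liver, batch 2 alone gave 1 in Phe11 liver, and averaging close libraries gave 4 there. TMM scaling gave 2 in Phe21 brain, 0 in Phe31 brain, 5 in Phe21 liver and 2 in the Phe21 interaction, where a pseudocount of 10 gave 2, edgeR 3 and averaging 2. Fewer libraries enter the fits within batches, and for the other settings the cause was not tested. Over all loci, 74 calls in Phe11 brain became 34 with DESeq2 and 6 in batch 1 alone, 25 in Phe11 liver became 11 with DESeq2, 14 with averaging and 8 and 5 within batches, 27 in Phe21 liver became 17 with DESeq2, and 19 in the livers labelled Phe31 became 7 with edgeR and 1 with DESeq2. Without the 10 loci with most reads, the members' share, averaged here over every library, rose from 15% to 17.5% in wild-type brain and from 15.8% to 18.9% over all 7 wild-type livers.

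With a replicate block, the tissue comparison gave 25 calls, the Phe11 interaction 3 and the Phe21 interaction 1. Over loci, the deviations of same-numbered brain and liver libraries had r of -0.011 and -0.022 in wild type and 0.018 in Phe11. In Phe21 each same-numbered pair had r over 0.1 (0.116, 0.121 and 0.132), at most a hint of pairing for that genotype. Phe11 brain library 14 and liver library 21, which have different numbers, had an r of 0.175. The labels do not say what a number marks. Because the same-numbered wild-type pairs in the Phe21 fit had no r over 0.1, the fit without the block was kept. The livers labelled Phe31 were the shallowest, with 4719 to 5576 reads, and wild-type liver of batches 1 and 2 counted as 2 samples.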
